A study of Mus musculus with 6 samples.

Results

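The genes described here are 42 genes of the cell cycle and of beta-cell replication, followed in RNA-seq of mouse pancreatic islets with and without the bile acid receptor FXR. They were chosen by name, as the rows of the gene count table whose symbol is one of the list, and all 42 were found among the 19342 genes counted. All 42 also passed the filter on low counts, which left 14619 genes for testing. The study compared FXR-/- mice, in which the gene of this nuclear receptor (*Nr1h4*) is knocked out on C57Bl/6, with FXR+/+ control mice, all aged 3 months. Islets were released from the pancreas with collagenase P, and polyadenylated RNA was sequenced. Each genotype had 3 libraries, from 1 female and 2 male samples, called female 1, male 1 and male 2. The labels name no promoter or Cre that would limit the knockout to one cell type, and the labels do not say how many mice gave each library. The p-values below therefore measure the spread between these libraries only.

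The libraries held 20629306 to 30139235 counts each. *Nr1h4* stood at 14.2, 13.6 and 12.2 CPM (each count as a share of 1000000 counts of its library, after TMM scaling) in FXR+/+ female 1, male 1 and male 2, and at 5.67, 7.63 and 5.81 CPM in the same order of FXR-/- libraries. The genotypes did not overlap, so the labels and the targeted gene go the same way. The *Ins1* and *Ins2* genes, which define beta cells, took 17.5% to 23.9% of the counts in each library. RNA of the acinar cells of the exocrine pancreas was present in each library, with a summed level of 11 acinar markers from 38038 to 131640 CPM.

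A cell divides by passing through G1, copying its DNA in S phase, and separating the copies in mitosis. D-type cyclins with CDK4 or CDK6 act in G1 and relieve the block that the pocket protein RB1 places on E2F factors, which switch on the genes for DNA replication. CDK inhibitors of the INK4 and CIP/KIP families hold this step back, and a later wave of genes, many of them under the DREAM and FOXM1-MYBL2 complexes, drives G2 and mitosis. Adult beta cells divide rarely, and cyclin D2, CDK4, p27, menin and EZH2 are well known regulators of their number in mice.

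Promoter sequence is shown for 3 genes: *Mki67*, the gene with the clearest difference between sexes below, *Cdk1*, the mitotic kinase, whose window holds all 3 motifs searched, and *Aurka*, the gene with the lowest p for genotype. Each window runs from 250 bases before to 50 bases after the RefSeq start in GRCm38.p6 and is printed 5′ to 3′ on the gene's own strand, which is the minus strand for all of them. *Mki67* lies at chr7:135716330-135716629, *Cdk1* at chr10:69352863-69353162 and *Aurka* at chr2:172370521-172370820. Capitals mark the cell cycle homology region (CHR, TTTGAA), the CCAAT box (CCAAT) and an E2F motif (TTTNNCGC), each on either strand.
Mki67: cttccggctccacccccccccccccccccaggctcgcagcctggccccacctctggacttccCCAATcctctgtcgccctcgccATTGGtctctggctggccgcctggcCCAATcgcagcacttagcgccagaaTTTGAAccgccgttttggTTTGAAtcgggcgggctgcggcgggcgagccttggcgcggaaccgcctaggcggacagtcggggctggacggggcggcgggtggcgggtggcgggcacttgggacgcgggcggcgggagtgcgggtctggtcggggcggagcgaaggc
Cdk1: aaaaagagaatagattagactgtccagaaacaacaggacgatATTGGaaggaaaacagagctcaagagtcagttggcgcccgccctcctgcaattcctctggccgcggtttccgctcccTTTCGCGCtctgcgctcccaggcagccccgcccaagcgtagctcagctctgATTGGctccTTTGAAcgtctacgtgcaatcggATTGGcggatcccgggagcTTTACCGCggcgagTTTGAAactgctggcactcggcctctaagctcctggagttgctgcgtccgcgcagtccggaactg
Aurka: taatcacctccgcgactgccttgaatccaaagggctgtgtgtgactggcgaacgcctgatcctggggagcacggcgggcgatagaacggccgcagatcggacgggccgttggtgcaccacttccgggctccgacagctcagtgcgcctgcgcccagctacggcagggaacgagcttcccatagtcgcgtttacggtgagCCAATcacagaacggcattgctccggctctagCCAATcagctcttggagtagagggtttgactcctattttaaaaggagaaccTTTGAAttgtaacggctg

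The *Mki67* window held 2 CHR and 3 CCAAT matches and no E2F match. The *Cdk1* window held 2 CHR, 3 CCAAT and 2 E2F matches, and the *Aurka* window held 1 CHR match, which lies after the start, and 2 CCAAT matches. RefSeq windows were matched for 34 of the 42 genes, 42 windows in all, and matches of different motifs shared bases in 1 of them. Of the 11 windows of G2 and mitosis genes, 7 (63.6%) held a CHR and 9 (81.8%) a CCAAT box, against 17.9% and 37.4% of all 32851 windows. Of the 9 windows of DNA replication genes, 5 (55.6%) held the E2F motif, against 5.17% of all windows, and 1 held a CHR. A match is a stretch of letters and was not tested for binding.

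Between genotypes, none of the 42 genes passed the threshold. With sex as a covariate in the edgeR quasi-likelihood model, 0 of the 42 had an adjusted p under 0.05, and the lowest was 0.369, for *Aurka*. The same test called 0% of all genes tested, that is 0 of 14619, with 1513 at an unadjusted p under 0.05. With the replicate number as a block, which called 0.164% of all genes, and with DESeq2, which called 1.37%, the count among the 42 was also 0. At an unadjusted p under 0.05, 2 of the 42 were higher in FXR-/- islets, where 6.19% of all genes were, and 0 were lower, where 4.16% of all genes were. In direction, 27 of the 42 (64.3%) and 7537 of the 14619 had a fold change above 0, and the median log2 fold change was 0.14 for the 42 and 0.0084 for all genes tested. The sign changed in at least 1 alternative for 18 of the 42. With the replicate block, 3 were higher (*Aurka*, *Cdkn2b* and *Cdkn1a*) and 1 lower (*Cdkn1b*) at an unadjusted p under 0.05. The share of all genes at that p was not computed for the block, so these counts have nothing to be set against. The 95% intervals of 35 of the 42 log2 fold changes lay within 1 on either side of 0. As these are bulk samples, fewer cells of a type and less RNA per cell cannot be told apart.

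**Figure D1:**
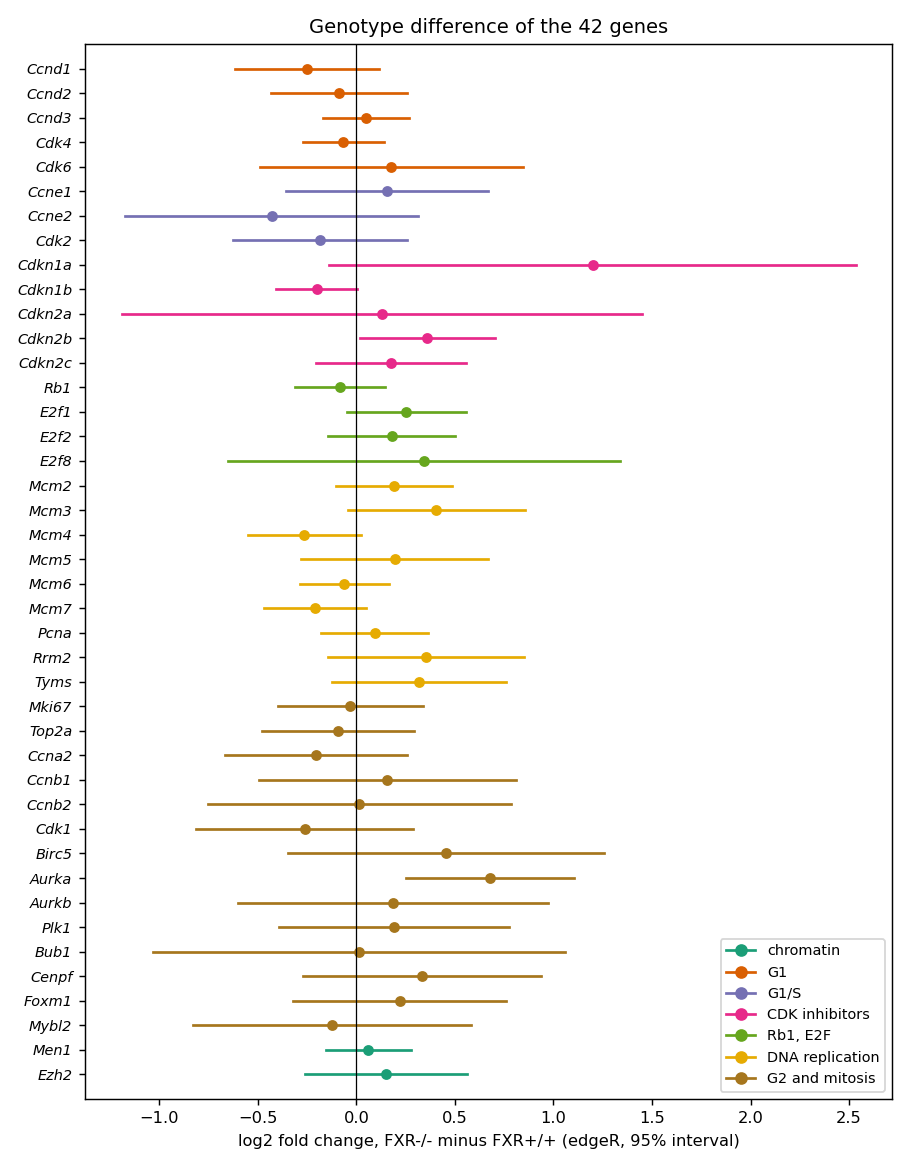
Log2 fold change of each of the 42 genes between genotypes, FXR-/- minus FXR+/+, from edgeR with a term for sex. Points are estimates, lines are 95% intervals, and colours mark the 7 roles; the intervals of 40 genes include 0, and those of *Aurka* and *Cdkn2b* lie above it.

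In the G1 group, cyclin D2 was the most abundant of the 42 genes. *Ccnd2* (chromosome 6, 127125162 to 127152193, minus strand, GRCm38) stood at 827, 768 and 1052 CPM in FXR+/+ female 1, male 1 and male 2, and at 743, 879 and 871 CPM in the FXR-/- libraries. The genotypes overlapped, and the log2 fold change was -0.09 ± 0.15 (SE, n = 3 per genotype). It turned positive with a term for acinar RNA or without FXR+/+ male 2. Scaled by exon length, *Ccnd2* in FXR+/+ islets was at 131 ± 22.4 CPM per kb (SD, n = 3), above its partner kinase *Cdk4* at 45.4 ± 1.99 and the related cyclins *Ccnd1* at 42.1 ± 13.1 and *Ccnd3* at 13.7 ± 0.624 CPM per kb. *Cdk4* and *Ccnd1* did not differ beyond their spread. *Cdk6*, the other G1 kinase, was at 0.295 ± 0.118 CPM per kb, among the lowest of the 42 genes. *Ccnd1* had the group's largest change, with 120, 140 and 213 CPM in FXR+/+ and 90.6, 166 and 147 CPM in FXR-/- libraries and a log2 fold change of -0.25 ± 0.16 (SE, adjusted p = 0.560, edgeR). All 5 genes of the group had an adjusted p of 0.560 or more in edgeR.

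The cyclins and kinase of the G1/S transition were low in both genotypes. *Cdk2*, the partner of cyclin E, was at 1.63 ± 0.363 CPM per kb in FXR+/+ islets (SD, n = 3), and the cyclin E genes *Ccne1* and *Ccne2* were at 1.04 ± 0.0674 and 1.02 ± 0.256 CPM per kb, which did not differ beyond their spread. *Ccne2* stood at 2.51, 3.12 and 4.13 CPM in FXR+/+ and at 2.80, 1.47 and 2.90 CPM in FXR-/- libraries. Its ranges overlapped, and its log2 fold change was -0.43 ± 0.32 (SE).

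Among the CDK inhibitors, *Cdkn1a* had the largest log2 fold change of all 42 genes, and it rested on 1 library. *Cdkn1a* encodes p21, a target of p53, and lies on chromosome 17 from 29090976 to 29100727 on the plus strand. It stood at 23.7, 20.4 and 14 CPM in FXR+/+ female 1, male 1 and male 2, and at 20, 98 and 28.1 CPM in the FXR-/- libraries. FXR-/- male 1 lay far above the other 5 libraries, and FXR-/- female 1 lay within the FXR+/+ range. The log2 fold change was 1.20 ± 0.57 (SE, adjusted p = 0.491, edgeR), and 0.31 without FXR-/- male 1. FXR-/- male 1 also had the highest summed level of acinar markers, 131640 CPM, and of 7 endothelial markers, 1049 CPM, and the part of these in the *Cdkn1a* level was not tested.

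*Cdkn2b* and *Cdkn1b* were the inhibitors whose genotypes did not overlap. Of all genes tested, 8.02% had every FXR-/- library above every FXR+/+ library, and 7.37% had every FXR-/- library below. *Cdkn2b* encodes p15, an INK4 inhibitor of CDK4 and CDK6, and lies on chromosome 4 from 89306299 to 89311039 on the minus strand. It was at 7.46, 7.33 and 7.45 CPM in FXR+/+ and at 8.22, 11.3 and 9.26 CPM in FXR-/- libraries. Every FXR-/- library was above every FXR+/+ library, with a log2 fold change of 0.36 ± 0.15 (SE, unadjusted p = 0.0411, adjusted p = 0.474, edgeR). *Cdkn1b* encodes p27, the main CIP/KIP inhibitor of cyclin E-CDK2, and was the most abundant inhibitor per kb at 21.0 ± 0.589 CPM per kb in FXR+/+ islets (SD, n = 3). It was at 95.6, 93.0 and 98.4 CPM in FXR+/+ and at 87.1, 74.8 and 87.8 CPM in FXR-/- libraries. Every FXR-/- library was below every FXR+/+ library, with a log2 fold change of -0.20 ± 0.09 (SE, adjusted p = 0.480, edgeR). The exact two-sided permutation test gave 0.1 for both, the smallest p that 3 libraries against 3 allow. The exons went the same way as the genes: the 2 tested exons of *Cdkn2b* had log2 fold changes of 0.34 and 0.54, and the 3 of *Cdkn1b* had values from -0.28 to -0.15. *Cdkn2c*, which encodes p18, was at 7.83 to 9.56 CPM in FXR+/+ and at 8.57 to 11.7 CPM in FXR-/- libraries. *Cdkn2a*, which encodes p16 and p19ARF, had 3 to 17 counts a library, and a change was not detectable at this depth (95% interval of the log2 fold change -1.19 to 1.45).

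**Figure D2:**
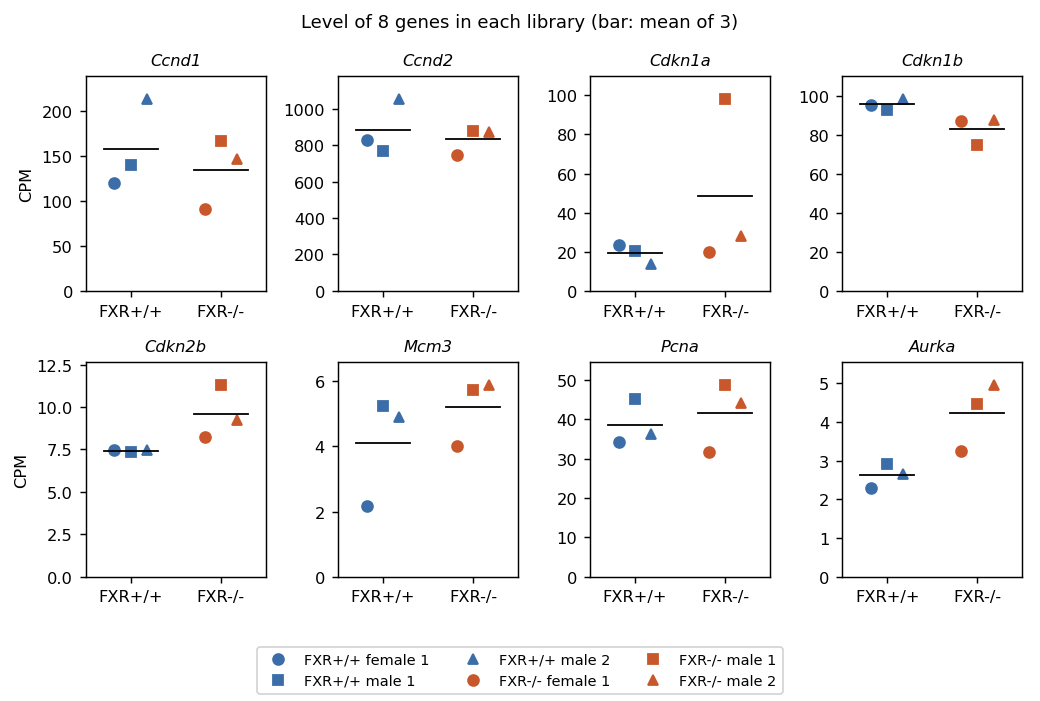
Level of 8 genes in each library in CPM, with FXR+/+ libraries in blue and FXR-/- libraries in orange, circles for female 1, squares for male 1 and triangles for male 2, and a bar at the mean of each genotype. FXR-/- male 1 stands alone for *Cdkn1a* at 98 CPM, and the genotypes do not overlap for *Aurka*, *Cdkn2b* and *Cdkn1b*.

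In the pocket protein and E2F group, *Rb1* was the most abundant at 5.66 ± 0.0965 CPM per kb in FXR+/+ islets (SD, n = 3), with 25.8 to 26.7 CPM in FXR+/+ and 22.5 to 28.6 CPM in FXR-/- libraries. The activator *E2f1* was at 10.7, 11.9 and 13.2 CPM in FXR+/+ and at 11.9, 13.9 and 17.3 CPM in FXR-/- libraries. These ranges overlapped, and the log2 fold change was 0.25 ± 0.13 (SE, adjusted p = 0.505, edgeR). *E2f2*, another activator, had a log2 fold change of 0.18 ± 0.14 (SE). *E2f8*, an atypical repressor of E2F targets, was the lowest of the 42 genes per kb at 0.166 ± 0.0364 CPM per kb and had 9 to 27 counts a library. Its log2 fold change of 0.34 ± 0.43 (SE) turned to -0.03 without FXR-/- male 2.

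The 9 DNA replication genes did not move together with genotype: 6 were higher and 3 lower in FXR-/- islets, with log2 fold changes from -0.26 to 0.41 and none at an unadjusted p under 0.05. *Pcna*, the sliding clamp of DNA polymerase, was the most abundant at 25.4 ± 3.83 CPM per kb in FXR+/+ islets (SD, n = 3). It was at 34.3, 45.2 and 36.3 CPM in FXR+/+ and at 31.7, 48.8 and 44.3 CPM in FXR-/- libraries, and its log2 fold change of 0.09 ± 0.12 (SE) changed sign with library size alone, a term for acinar RNA or without FXR+/+ male 2. The subunits of the MCM helicase split. *Mcm3* had the largest change, at 2.17, 5.25 and 4.89 CPM in FXR+/+ and 4.01, 5.73 and 5.89 CPM in FXR-/- libraries, a log2 fold change of 0.41 ± 0.19 (SE, adjusted p = 0.490, edgeR). *Mcm4* went the other way at -0.26 ± 0.12, as did *Mcm7* at -0.21 ± 0.11 and *Mcm6* at -0.06 ± 0.10 (SE, n = 3 per genotype). *Mcm2* and *Mcm5* were both at 0.19, with SEs of 0.13 and 0.20. The nucleotide synthesis genes *Rrm2* and *Tyms* had log2 fold changes of 0.35 ± 0.21 and 0.32 ± 0.19 (SE), and that of *Rrm2* was -0.07 with exon counts summed per gene.

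Of the 14 genes of G2 and mitosis, *Aurka* was the one whose genotypes did not overlap. It encodes Aurora A, a kinase of the centrosome and spindle, and lies on chromosome 2 from 172356190 to 172370535 on the minus strand. It stood at 2.3, 2.92 and 2.65 CPM in FXR+/+ female 1, male 1 and male 2, from 54, 59 and 84 counts, and at 3.24, 4.47 and 4.96 CPM in the FXR-/- libraries, from 80, 85 and 118 counts. Every FXR-/- library was above every FXR+/+ library. The log2 fold change was 0.68 ± 0.18 (SE, unadjusted p = 0.0067, adjusted p = 0.369, edgeR), and it stayed between 0.58 and 1.08 under every alternative run. The exact permutation p was 0.1. Over the 42 genes, 2 had every FXR-/- library above every FXR+/+ library, against 8.02% of all genes tested, and 1 had every FXR-/- library below, against 7.37%. The remaining mitotic genes had no shared direction with genotype: of all 14, 9 were higher and 5 lower, with a median log2 fold change of 0.09. The proliferation marker *Mki67* had a log2 fold change of -0.03 ± 0.16 and *Top2a*, the topoisomerase that untangles sister chromatids, one of -0.09 ± 0.17 (SE). For *Mki67* the 95% interval ran from -0.40 to 0.34.

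The chromatin regulators were close between genotypes. *Men1*, which encodes menin and restrains beta-cell number through CDK inhibitor genes, was at 49.4, 51.7 and 50.5 CPM in FXR+/+ and at 45.9, 60.2 and 52.8 CPM in FXR-/- libraries. The FXR-/- libraries spanned the FXR+/+ range, and its log2 fold change of 0.06 ± 0.09 (SE) changed sign with library size alone and without FXR-/- male 1. *Ezh2*, the Polycomb methyltransferase that silences *Cdkn2a*, had a log2 fold change of 0.15 ± 0.18 (SE).

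The female and male libraries were also compared, a comparison chosen after the values were seen, in which 1 of the 14 mitotic genes, *Mki67*, was called by edgeR. It uses the sex term of the same fit, with 2 female and 4 male libraries, 1 female per genotype. Both females carry the number 1, so sex cannot be told apart from anything else those 2 libraries share. *Mki67* (chromosome 7, 135689784 to 135716361, minus strand) stood at 2.86 CPM in FXR+/+ female 1 and 2.51 CPM in FXR-/- female 1, from 67 and 62 counts. In the males it stood at 9.47 and 7.83 CPM in FXR+/+ male 1 and male 2, and at 8.15 and 9.47 CPM in FXR-/- male 1 and male 2. Both females lay below all 4 males, at 0.330 of the male level in FXR+/+ and 0.285 in FXR-/- islets. The log2 difference, female minus male, was -1.70 ± 0.18 (SE, adjusted p = 0.0424, edgeR). *Mki67* was 1 of 8 genes called for sex, 0.0547% of all tested, and 6 of the other 7 were *Xist*, *Kdm6a* and the Y-linked *Kdm5d*, *Uty*, *Ddx3y* and *Eif2s3y*, with *Gm5771* as the last. The difference kept its sign in every alternative, from -1.81 to -1.55, but the call was lost with library size alone, with at least 10 counts in every library, and when any library other than FXR+/+ male 2 was left out (adjusted p up to 0.929, edgeR).

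All 14 mitotic genes had a lower level in the female than in the mean of the males, in both genotypes. Of these, 11 (78.6%) were lower at an unadjusted p under 0.05, against 3.86% of all genes, and 12 had both females below all 4 males, against 8.04% of all genes. Their median log2 difference was -1.29, against -0.003 over all genes tested. Together they summed to 19.6 CPM in FXR+/+ female 1 and 20.4 CPM in FXR-/- female 1, and to 47.2, 40.1, 41.2 and 50.2 CPM in FXR+/+ male 1 and male 2 and FXR-/- male 1 and male 2. The female to male ratio of the sum was 0.449 in FXR+/+ and 0.446 in FXR-/- islets. DESeq2, which called 0.568% of all genes for sex, called 5 of the 42: *Mki67*, *Top2a*, *Birc5*, *Cenpf* and *Ccnd1*.

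**Figure D3:**
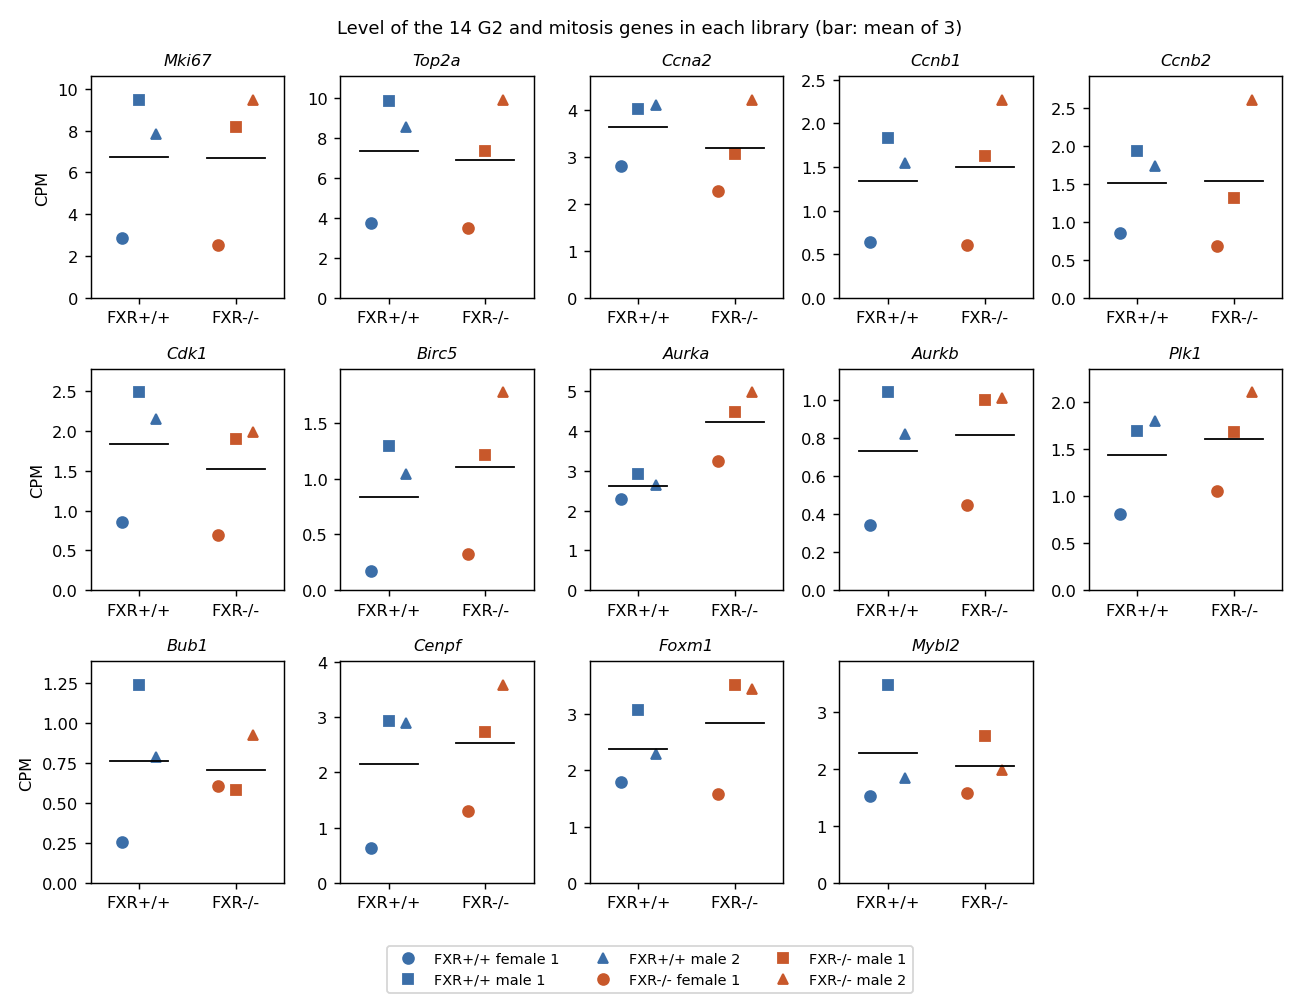
Level of the 14 G2 and mitosis genes in each library in CPM, with FXR+/+ libraries in blue and FXR-/- libraries in orange, circles for female 1, squares for male 1 and triangles for male 2, and a bar at the mean of each genotype. For 12 of the 14 genes both circles lie below all squares and triangles; the other two are *Aurka* and *Bub1*.

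*Top2a* was at 3.75 and 3.48 CPM in the female libraries and at 9.86, 8.55, 7.36 and 9.93 CPM in the males, a log2 difference of -1.30 ± 0.19 (SE). *Cdk1*, whose promoter is printed above, was at 0.852 and 0.689 CPM in females and at 2.48, 2.15, 1.89 and 1.98 CPM in males, a log2 difference of -1.45 ± 0.27 (SE). Its partner cyclin *Ccnb1* followed at -1.54 ± 0.33 (SE), and *Cenpf*, a kinetochore protein, at -1.67 ± 0.30 (SE). The widest difference was that of *Birc5*, which encodes survivin of the chromosomal passenger complex, at -2.41 ± 0.44 (SE), from 4 and 8 counts in the females and 23 to 42 in the males. The smallest was that of *Aurka*, at -0.41 ± 0.20 (SE), the gene with the lowest p for genotype. *Foxm1*, the factor that drives many of these genes, was at -0.85 ± 0.26, and its partner *Mybl2* at -0.64 ± 0.33 (SE).

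The other roles were read in the same sex term. Of the 9 replication genes, 5 were lower in females at an unadjusted p under 0.05, against 3.86% of all genes. Their median log2 difference was -0.42, and *Mcm3* was the furthest at -0.85 ± 0.21 (SE). *Mcm7* went the other way at 0.23 ± 0.12 (SE). *Ccnd1* was at 120 and 90.6 CPM in females and at 140, 213, 166 and 147 CPM in males, a log2 difference of -0.67 ± 0.17 (SE, adjusted p = 0.0226 in DESeq2 and 0.548 in edgeR). None of the 5 CDK inhibitors had an unadjusted p under 0.05 for sex. Over all 42 genes, 19 (45.2%) were lower in females at an unadjusted p under 0.05, against 3.86% of all genes. At that p 0 were higher, for which no share of all genes was computed. Both females lay below all males for 24 (57.1%), against 8.04% of all genes. The interaction of genotype and sex had 0 of the 42 at an adjusted or an unadjusted p under 0.05 in edgeR or DESeq2, and 1 at an unadjusted p under 0.05 with library size alone. With 1 female library per genotype, the males alone gave the spread of that test, so it says little about whether the sexes differ in their response.

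**Figure D4:**
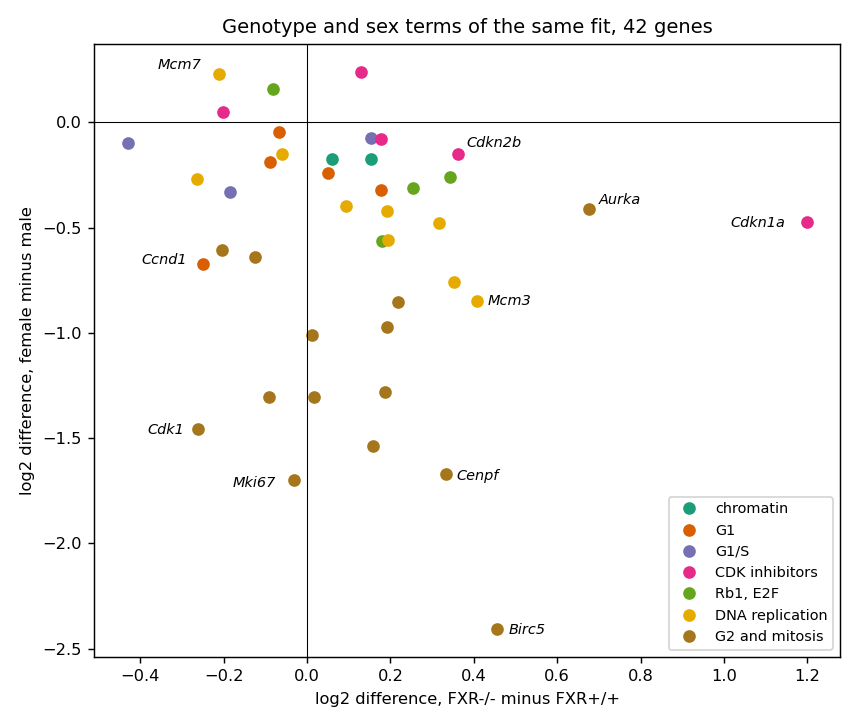
Log2 difference between genotypes (x axis, FXR-/- minus FXR+/+) against log2 difference between sexes (y axis, female minus male) for the 42 genes, both from the same edgeR fit, with colours for the 7 roles. The mitotic genes spread downwards from -0.41 to -2.41 on the sex axis and lie between -0.26 and 0.68 (*Aurka*) on the genotype axis.

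Acinar RNA also differed between the libraries. The summed acinar markers were at 43370 and 54593 CPM in the females and at 116215, 38038, 131640 and 78113 CPM in the males, in the order given for the mitotic sum. FXR+/+ male 2 had the lowest acinar level of all 6 libraries. With a term for acinar RNA the mitotic median was -1.23 and *Mki67* was at -1.63 (adjusted p = 0.0379, edgeR). The 6 alpha cell markers summed to 1.53 times the male level in the FXR+/+ female and 1.34 times in the FXR-/- female. In the same order, the ratio was 0.913 and 0.751 for beta cell, 0.565 and 0.854 for stellate, and 0.971 and 0.74 for endothelial markers. It was 0.984 and 0.804 for ductal, 1.47 and 0.846 for delta cell, and 0.827 and 1.61 for B cell markers. T cell (1.71 and 2.44) and erythroid markers (0.516 and 0.547) summed to 3.17 CPM or less in each library. Of the 7 macrophage markers, 0 differed at an unadjusted p under 0.05. Beyond the fit with the acinar term, the part of acinar RNA in the mitotic difference was not tested. The part of the alpha cell share or of the other cell types was not tested either.

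**Figure D5:**
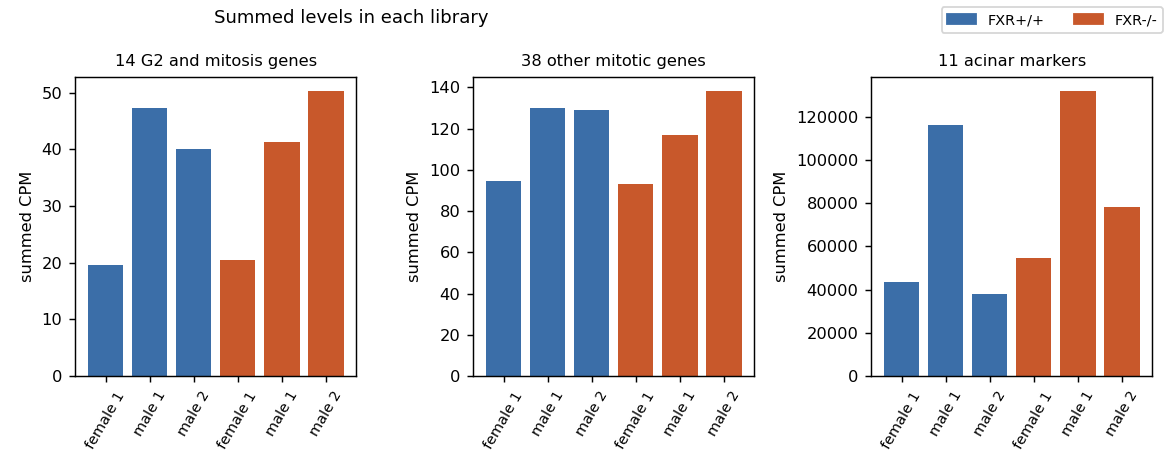
Summed CPM in each library of the 14 G2 and mitosis genes, of 38 other mitotic genes and of 11 acinar markers, with FXR+/+ in blue and FXR-/- in orange and axes from 0. Both females are lowest in the first and second panels, and the third has FXR+/+ male 2 as its lowest bar.

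Other genes of the same pathways, from lists drawn up by function, were counted in the same way. Of 36 tested genes of a further mitotic list, 0 had an unadjusted p under 0.05 for genotype, while 35 were lower in females. Of these, 19 were lower at an unadjusted p under 0.05, against 3.86% of all genes. Both females lay below all males for 29, against 8.04% of all genes. *Prc1*, which bundles the spindle midzone, was at -1.01 ± 0.20 (SE) and *Tpx2*, an activator of Aurora A, at -1.34 ± 0.37 (SE) for sex. Their median log2 difference was -0.89. Of 32 further replication genes, *Orc1*, a subunit of the origin recognition complex, was the 1 with an unadjusted p under 0.05 for genotype. It was lower in FXR-/- islets (log2 fold change -1.51 ± 0.53, SE, adjusted p = 0.450, edgeR), from 10 to 22 counts a library in FXR+/+ and 2 to 7 in FXR-/-. At an unadjusted p under 0.05, 4.16% of all genes were lower and 6.19% higher in FXR-/- islets. Of 16 further G1 regulators, 0 had an unadjusted p under 0.05 for genotype.

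Of 23 tested regulators of beta-cell replication, 2 were higher and 3 lower in FXR-/- islets at an unadjusted p under 0.05. The shares of all genes were 6.19% and 4.16%. With the replicate block 8 had such a p, and the share of all genes was not computed for that fit. These counts are small, and the genes are given as values. *Stat5b*, a transducer of prolactin and growth hormone signals, was at 91.4, 72.8 and 76.6 CPM in FXR+/+ and at 116, 96.6 and 99.6 CPM in FXR-/- libraries. Every FXR-/- library was above every FXR+/+ library, with a log2 fold change of 0.38 ± 0.07 (SE, adjusted p = 0.239 in edgeR and 0.00297 in DESeq2). *Stat5a* was at 0.41 ± 0.12 (SE). Of the 23, 10 had a negative log2 fold change. The 3 of them at an unadjusted p under 0.05 in edgeR were *Bcl6*, *Met* and *Hnf4a*. *Bcl6*, a repressor known to oppose STAT5, was at -0.36 ± 0.14 (SE). The hepatocyte growth factor receptor *Met* was at -0.28 ± 0.10 and the nuclear receptor *Hnf4a* at -0.24 ± 0.09 (SE). None of these had an adjusted p under 0.05 in edgeR.

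Of the markers of other cell types, none of the lists named here had a gene with an adjusted p under 0.05 for genotype in edgeR. That test called 0 of all 14619 genes. DESeq2, which called 1.37% of all genes, called 3 of these markers, all higher in FXR-/- islets. They were the endothelial *Plvap* and *Emcn* (adjusted p = 0.00841 and 0.00881, DESeq2) and the ductal *Spp1* (adjusted p = 0.00146, DESeq2). Of 9 beta cell markers, 6 were higher and 3 lower in FXR-/- islets. DESeq2 called 1 of these 9, *Mafa*, which was higher (adjusted p = 8.9e-11, DESeq2). At an unadjusted p under 0.05, 5 of 7 endothelial, 4 of 7 macrophage and 3 of 6 tested ductal markers were higher in FXR-/- islets, against 6.19% of all genes. The endothelial sum was 530 to 627 CPM in FXR+/+ and 652 to 1049 CPM in FXR-/- libraries, the macrophage sum 110 to 148 and 147 to 174 CPM, and the ductal sum 323 to 413 and 319 to 424 CPM. All 6 stellate markers were higher, 0 of them at an unadjusted p under 0.05. With the replicate block all 6 were under it (lowest adjusted p = 0.137, edgeR), but the share of all genes was not computed for that fit. Of 2 tested B cell markers, 1 was lower at an unadjusted p under 0.05. The part of these cells in the levels of *Aurka*, *Cdkn2b* and *Stat5b* was not tested.

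At the level of exons, 53 of the 302 listed exons of the 42 genes passed the filter, from 32 genes. Of these, 0 were called between genotypes (lowest adjusted p = 0.385, edgeR), against 0.0185% of the 26998 exons tested, and 32 were higher and 21 lower. The 2 tested exons of *Cdkn1a* were both at about the gene's value, 1.20 and 1.27. The 2 tested exons of *Mki67* differed between sexes by -1.69 and -1.27. Exons of 14 of the 42 genes overlap those of another gene, on the same strand for *Foxm1*, and 5 genes have a named pseudogene copy, so their counts may hold reads of another gene.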

How the data were processed

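The authors deposited raw counts per gene and per exon for each of the 6 libraries. The submitters' processing notes name HISAT. The annotation, the counting rule and whether strand was used are not given in the sources used here. The authors also deposited comparisons of the genotypes (mean level, log2 fold change, p-values and q-values), which were not used, and 0 columns of per-sample values were left unused. Genotype, sex and age came from the labels.

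Tests on the counts used edgeR 4.0.16 under R 4.3.3: filterByExpr by genotype (minimum count 10, minimum total 15), TMM, estimateDisp, glmQLFit and glmQLFTest, in a model of sex plus genotype over all 6 libraries, with Benjamini-Hochberg adjustment over all 14619 genes. There were 3 residual and 4.43 prior degrees of freedom, and SEs were taken from the F statistic. Intervals are 95%. CPM were computed with TMM factors, and CPM per kb with the merged exons of GENCODE vM21. Permutation tests used log2(CPM + 0.01) over 20 relabellings and were two-sided. The script was tested on simulated data. DESeq2 1.42.0 and further alternatives were run, as the closing section describes.

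The labels do not state that libraries are paired. The replicate block took libraries with the same name in both genotypes as pairs. Deviations from genotype means correlated at 0.359 (female 1), 0.351 (male 1) and 0.307 (male 2), and at 0.009 or below between other names. The female 1 libraries share their sex, and the male 1 libraries had acinar sums of 116215 and 131640 CPM. What these correlations reflect was not tested. What a number marks is not stated. Every pair of libraries differed by more than counting error (chi-square per gene of at least 15.9).

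The 42 genes, their roles and all lists were chosen with earlier results of these data known. Of the 42, those given were genes with an unadjusted p under 0.05 in edgeR or a genotype call in any of the 3 fits. The highest gene per kb and the most changed gene of each role were given too. These have the value of every library, except *Rb1* and *E2f8*, given as ranges, *Cdk2*, given per kb, and *Ezh2*, given as a fold change. Up to 5 genes of each other list are given, mostly as fold changes. Genes named for the sex difference and the others were chosen after their values were seen.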

Additional observations from a re-analysis of the deposited data

How the results depend on the processing

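No gene of the 42 was called between genotypes in any of the 17 alternatives, and 0 of their exons were called with at least 10 counts in every library or with the replicate block. The count of genes higher in FXR-/- islets at an unadjusted p under 0.05 was 2, 1 with library size alone or DESeq2, 3 with no term for sex, the replicate block, males alone or the acinar term, and 1 to 3 when single libraries were left out. The count lower was 0, and 1 with DESeq2's size factors, DESeq2 or no term for sex, 3 with library size alone, and 0 to 1 when single libraries were left out. With the replicate block, the 42 genes had a lowest adjusted p of 0.169 (edgeR) and 1 gene lower at an unadjusted p under 0.05. The block changed no call. Shares of all genes at an unadjusted p under 0.05 were not computed for the alternatives. Genotypes did not overlap for 3 of the 42 genes, where 8.02% of all genes were above and 7.37% below. With exon counts summed per gene the number was 6, and the share of all genes was not computed.

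The sign of the genotype difference changed in at least 1 alternative for 18 of the 42 genes and was kept for 24. With exon counts summed per gene *Rrm2* went from 0.35 to -0.07, *Ccnb1* from 0.16 to -0.55 and *Mki67* from -0.03 to 0.04, and *Cdk6* went from 0.18 to -0.10 with the acinar term. *Ccnd2* was at 0.036 with a term for acinar RNA and 0.041 without FXR+/+ male 2. *Pcna* was at -0.001 with library size alone, -0.011 with the acinar term and -0.023 without FXR+/+ male 2. *Men1* was at -0.036 with library size alone and -0.022 without FXR-/- male 1. *E2f8* was at -0.027 without FXR-/- male 2, and *Top2a* at 0.022 without FXR-/- male 1. The cause was not tested. Library size alone put the median of all genes at -0.087 (log2).

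For the sex difference, which was chosen after seeing the data along with its alternatives, the genes called numbered 1 in edgeR, 0 with library size alone or at least 10 counts in every library, 5 with DESeq2, and 0 to 1 when single libraries were left out (1 without FXR+/+ male 2 and 0 without any other). Those lower at an unadjusted p under 0.05 numbered 19, 9 with exon counts summed per gene, which tested 37 of the 42, and 10 to 20 when single libraries were left out, the lowest without FXR-/- female 1 (10) and FXR+/+ female 1 (11). The mitotic median of -1.29 was -1.07 with summed exon counts and -1.12 to -1.35 when single libraries were left out. Mitotic genes had 4 to 88 counts in female libraries, which limits the precision of single genes.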
